A study of Mus musculus with 4 samples.

Results

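Peroxiredoxins are abundant thiol enzymes that reduce hydrogen peroxide and organic peroxides. The rule took every array probe set annotated to exactly 1 of the symbols Prdx1 to Prdx6, and 9 probe sets of 45037 met it. They stood for 4 genes of the 6 in the family: 2 probe sets for Prdx1, 2 for Prdx2, 1 for Prdx3 and 4 for Prdx4. No probe set was listed under Prdx5 or Prdx6 in the platform annotation used here, so these genes were not analysed here. The family was chosen on measured values, namely the knockout to wild-type ratios of the Prdx2 probe sets in these arrays, so the fold changes of its members are a description and carry no test.

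The arrays were hybridized with RNA of whole inguinal mammary gland, mammary epithelium included, taken at postnatal day 10. The comparison was between genotypes on a congenic C57Bl/6J background, Mt2-mmp(-/-) mice, which lack the membrane-anchored metalloproteinase Mt2-mmp (gene symbol Mmp15) in the whole animal, with 2 arrays, and Mt2-mmp(+/+) littermates, with 2 arrays. The labels call the arrays of a genotype biological replicates, give no treatment or sex, and do not say whether an array holds 1 mouse or a pool, so the spread within a genotype is the spread between these arrays. No probe set was listed under Mmp15 in the same annotation, and no value for it is given. Of the labelled tissue, the 9 measured luminal epithelial markers averaged log2 values of 7.98 to 8.07 in knockouts and 8.23 to 8.27 in wild type, and all of them lay above the 95th percentile of the array's nonspecific controls in at least 1 array. Because the whole tissue was used, fewer cells of a type and less RNA per cell cannot be told apart.

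A peroxiredoxin works through a cysteine that the peroxide oxidises and that thioredoxin then restores, with thioredoxin reductase supplying the electrons. At high peroxide the cysteine can be overoxidised, and sulfiredoxin repairs it. Members are divided among compartments: Prdx1 and Prdx2 act in the cytosol, Prdx2 being among the most abundant proteins of red blood cells, Prdx3 acts in the mitochondrial matrix and Prdx4 in the endoplasmic reticulum, where it also supports disulfide formation in secreted proteins. In mouse, Prdx1 belongs to the genes driven by Nrf2, a transcription factor that answers oxidative stress at antioxidant response elements.

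The promoters of Prdx1 and Prdx2 are shown because these are the cytosolic members whose paired probe sets behaved in contrasting ways, together in Prdx1 and apart in Prdx2. Each run covers 250 bases before to 50 after the RefSeq start (GRCm38.p6), and capitals mark a match to the antioxidant response element core TGACNNNGC, searched on both strands. The Prdx1 window is chr4:116685349-116685648 and the Prdx2 window is chr8:84969372-84969671, both on the plus strand.
Prdx1: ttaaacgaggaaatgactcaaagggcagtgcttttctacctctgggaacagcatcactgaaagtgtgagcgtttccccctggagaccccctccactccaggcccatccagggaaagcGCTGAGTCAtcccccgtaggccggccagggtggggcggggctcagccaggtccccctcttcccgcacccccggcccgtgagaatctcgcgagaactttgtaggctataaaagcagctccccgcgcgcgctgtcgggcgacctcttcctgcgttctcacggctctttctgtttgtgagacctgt
Prdx2: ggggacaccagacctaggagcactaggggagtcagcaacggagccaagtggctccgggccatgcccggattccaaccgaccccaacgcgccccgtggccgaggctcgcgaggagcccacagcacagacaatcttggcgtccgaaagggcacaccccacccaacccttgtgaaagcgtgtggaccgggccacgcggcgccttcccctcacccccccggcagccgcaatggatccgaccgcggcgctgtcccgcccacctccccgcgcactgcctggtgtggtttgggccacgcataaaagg
The Prdx1 window held 1 match, read as GCTGAGTCA on this strand, which begins 133 bases before the start. The Prdx2 window held 0, and so did those of Prdx3, Prdx4 and Prdx5. The motif was present in 12.4% of the 32851 promoter windows of the same length, so a match in 1 of 5 is a description of these letters.

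Values below are the deposited RMA log2 values of single probe sets, given for replicate 1 and then replicate 2 of a genotype. A log2 fold change is the knockout mean minus the wild-type mean, so a positive one means higher in knockouts. The arrays correlated between 0.995 and 0.997 across probe sets, with 0.996 between the knockouts and 0.996 between the wild-type arrays. The medians of the array's control probe sets named nonspecific were 3.26 to 3.28. Arrays stood apart within each genotype by hair follicle and epidermal markers, whose summed level ran from 375 to 5195 in knockouts and from 370 to 4492 in wild type on the linear scale, with knockout 1 and wild type 2 high. Of these 12 measured markers 7 were above 0 in fold change, and Krt1, Lor and Flg stayed below the 95th percentile of the nonspecific controls. Genotype therefore did not separate the high from the low arrays of that list.

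**Figure D1:**
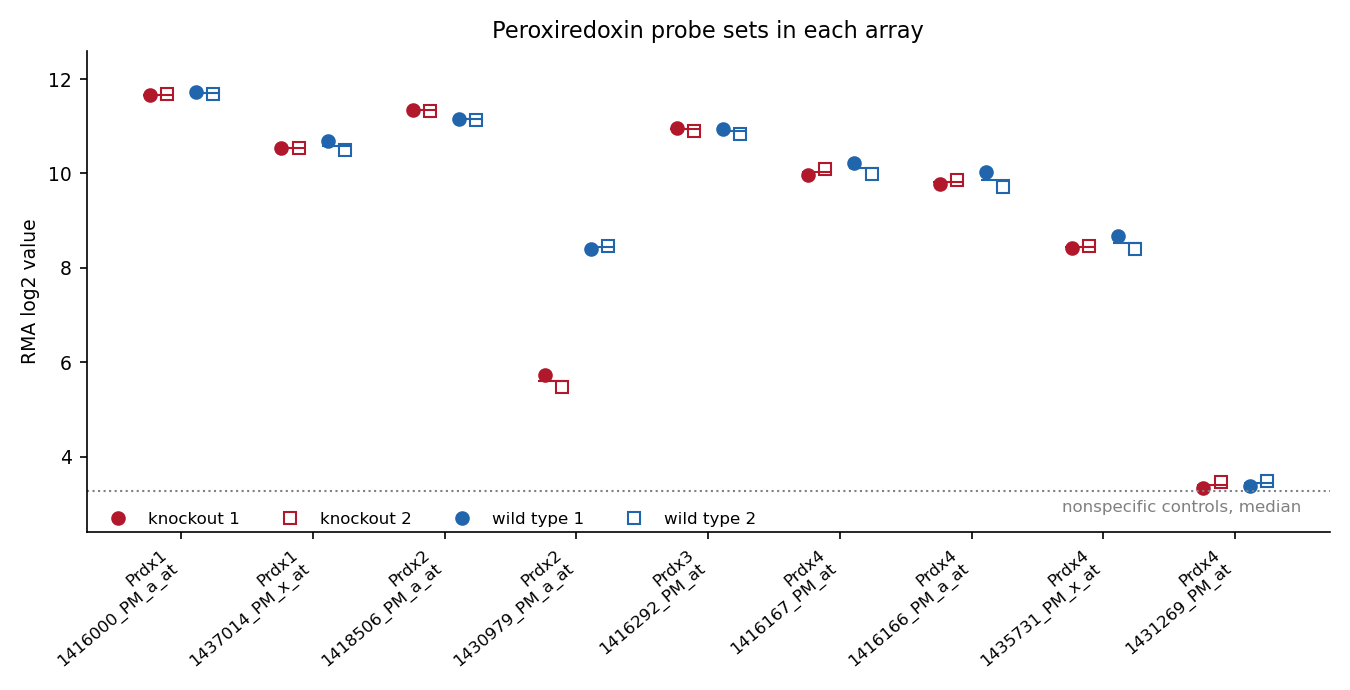
RMA log2 value (y axis) of the 9 peroxiredoxin probe sets (x axis) in each array, with knockout in red and wild type in blue; short bars are genotype means and the dotted line is the median of the nonspecific controls. Probe set 1430979_PM_a_at of Prdx2 lies at 5.73 and 5.48 in knockouts against 8.40 and 8.47 in wild type, while the points of the other 8 probe sets lie close together.

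Prdx2 gave opposite readings from its 2 probe sets. On probe set 1430979_PM_a_at the log2 value of Prdx2 was 5.73 and 5.48 in the knockout arrays, against 8.40 and 8.47 in the wild-type arrays. Both knockout arrays were far below both wild-type arrays, with no overlap. Knockouts averaged 5.61 ± 0.179 and wild type 8.44 ± 0.051 (SD, n = 2 each). The log2 fold change was -2.83 (SE 0.103), a signal 7.11-fold lower in knockouts. The knockout values nevertheless stayed above the 95th percentile of the nonspecific controls, which was 4.49 and 4.51 in these arrays, although the brightest such control reached 6.78 and 6.96.

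On probe set 1418506_PM_a_at the log2 value of Prdx2 was 11.35 and 11.33 in the knockout arrays, against 11.16 and 11.14 in the wild-type arrays. Here both knockout arrays were slightly above both wild-type arrays, again with no overlap. Knockouts averaged 11.34 ± 0.012 and wild type 11.15 ± 0.018 (SD, n = 2 each). The log2 fold change was 0.18 (SE 0.066), or 1.14-fold. The annotation ties this probe set to a RefSeq mRNA of Prdx2 and the other to a separate cDNA entry. The suffix _a_at of both names marks, in the manufacturer's scheme, a set whose probes match several transcripts of 1 gene. Which transcripts or exons the probes of either set cover was not analysed here.

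The disagreement was similar in size whichever arrays were taken. Within one array the log2 value of 1418506_PM_a_at exceeded that of 1430979_PM_a_at by 5.61 and 5.85 in the knockout arrays, and by 2.76 and 2.67 in the wild-type arrays. Brightness differs between probe sets for reasons of design, so the change of this difference with genotype, and not its size, is what the arrays compare. The fold changes of the 2 probe sets lay 3.01 apart on the log2 scale, and between 2.90 and 3.13 apart with any 1 array left out. When the probe sets of a gene were averaged, the log2 fold change of Prdx2 was -1.32 (SE 0.070), and when the brightest probe set stood for the gene it had 0.18, so a value per gene takes its sign from the rule for combining probe sets.

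Set beside the whole array, 1430979_PM_a_at had the second largest fold change in size among 45037 probe sets, after 1420357_PM_s_at, which has no single gene symbol here (-2.86, SE 0.599). That probe set varied more between knockouts, with log2 values of 5.66 and 3.72 in the knockout arrays, against 7.71 and 7.38 in the wild-type arrays. Limma with Benjamini-Hochberg adjustment over all probe sets called 2 of them (0.00444% of those tested), and 1 of the 2 was this probe set of Prdx2, which belongs to the values the gene was chosen on. The other was Gadd45gip1, a mitochondrial ribosome protein gene (1417619_PM_at), which was lower by the same fit (-1.51, SE 0.066, limma adjusted p = 0.0297). The number called was 0 without knockout 1, without knockout 2 or without wild type 2, and 5 without wild type 1, of which 1 was among the 2 named here. Gadd45gip1 did not pass in any of these 4 fits (limma adjusted p = 0.0901 without wild type 1 and 0.117 to 0.266 in the others), nor with the replicate number as a block (0.616) or a crossed block (0.231). The log2 fold change of 1430979_PM_a_at lay between -2.96 and -2.70 with 1 array left out. Groups did not overlap in 3 of the 9 peroxiredoxin probe sets, against 36.4% of all probe sets.

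**Figure D2:**
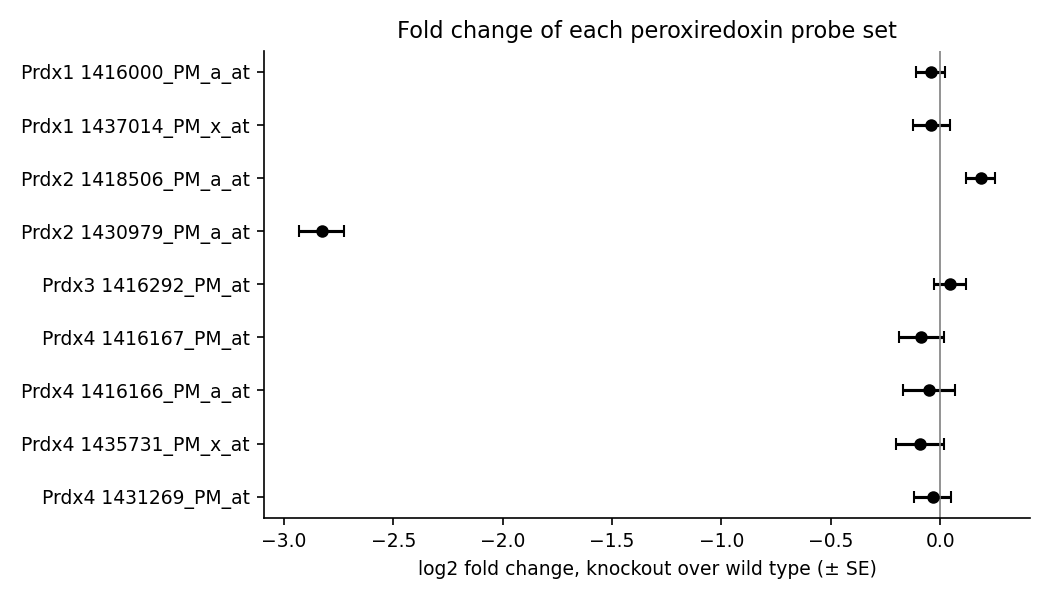
Log2 fold change of knockout over wild type (x axis) for the 9 peroxiredoxin probe sets (y axis), with bars of 1 SE from limma. Prdx2 1430979_PM_a_at lies at -2.83 and Prdx2 1418506_PM_a_at at 0.18, and the other 7 lie between -0.09 and 0.04.

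Prdx1, the other main cytosolic member, had closely matching readings from its 2 probe sets. The log2 value of Prdx1 on 1416000_PM_a_at was 11.66 and 11.68 in the knockout arrays, against 11.74 and 11.69 in the wild-type arrays. The knockouts lay below the wild type without overlap, by a margin smaller than the gap between the 2 wild-type arrays, and the log2 fold change was -0.04 (SE 0.067). On 1437014_PM_x_at, a set with some probes that also match other sequences by the manufacturer's suffix, the values were 10.55 and 10.55 in the knockout arrays, against 10.68 and 10.50 in the wild-type arrays. Both knockouts fell between the wild-type arrays, with a log2 fold change of -0.04 (SE 0.085) that was 0.05 without wild type 1.

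Prdx3, the mitochondrial member, was represented by 1 probe set, 1416292_PM_at. Its log2 value was 10.96 and 10.91 in the knockout arrays, against 10.94 and 10.84 in the wild-type arrays. The genotypes overlapped, with a log2 fold change of 0.04 (SE 0.073) that was -0.003 without wild type 2. No second probe set was available to compare with it.

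Prdx4, the enzyme of the endoplasmic reticulum, had 3 bright probe sets and 1 near the controls. On 1416167_PM_at the log2 value of Prdx4 was 9.96 and 10.09 in the knockout arrays, against 10.23 and 10.00 in the wild-type arrays. Knockout 2 lay between the wild-type arrays, so the genotypes overlapped, and the log2 fold change was -0.09 (SE 0.103). On 1416166_PM_a_at the values were 9.77 and 9.86 in the knockout arrays, against 10.03 and 9.71 in the wild-type arrays, a log2 fold change of -0.05 (SE 0.120). On 1435731_PM_x_at they were 8.42 and 8.46 in the knockout arrays, against 8.67 and 8.39 in the wild-type arrays, a log2 fold change of -0.09 (SE 0.108). The genotypes overlapped in both. In all 3 of these probe sets wild type 1 was the highest array, and without it the log2 fold changes were 0.03, 0.11 and 0.05 in the order given. The remaining set, 1431269_PM_at, read 3.33 and 3.47 in the knockout arrays, against 3.39 and 3.49 in the wild-type arrays, close to the nonspecific control medians, so its log2 fold change of -0.03 (SE 0.083) says little about Prdx4.

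The spread of fold changes among the probe sets of a gene was 0.001 for Prdx1, 0.06 for Prdx4 and 3.01 for Prdx2. Over the 7180 genes with several probe sets the median spread was 0.11, and the 99th percentile was 0.52. Prdx2 had the largest spread of these genes, which is the property it was chosen for. The next were St3gal6, a sialyltransferase (1.84), and Gadd45gip1 (1.78), whose second, dimmer probe set 1448776_PM_at had a log2 fold change of 0.27. That dimmer set read 4.63 and 4.57 in the knockout arrays, against 4.48 and 4.17 in the wild-type arrays. Both wild-type values lay below the 95th percentile of the nonspecific controls, 4.49 and 4.56 in those arrays, so the Gadd45gip1 spread rests on a set near the controls. Spreads of at least 1 occurred in 6 genes. Of the 10 genes with the largest spreads 5 lie on chromosome 8, namely Prdx2, Gadd45gip1, Ciapin1 (1.19), 9130214F15Rik (1.17) and Coq9 (0.97), and the targeted gene Mmp15 lies on that chromosome too. This count was taken after the values were seen and was not tested.

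**Figure D3:**
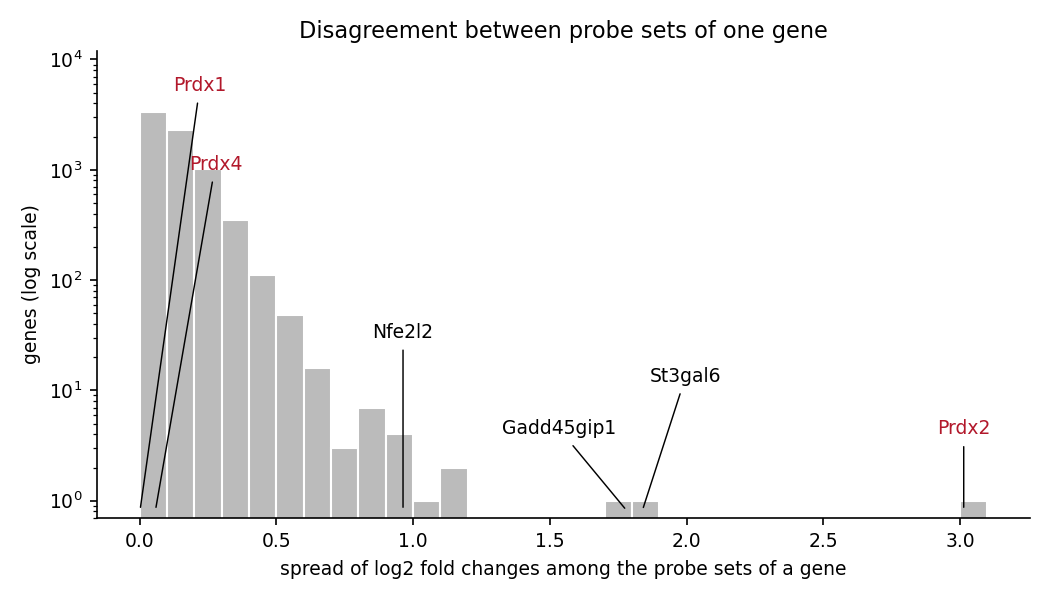
Number of genes (y axis, log scale) by the spread of log2 fold changes among their probe sets (x axis), for the 7180 genes with several probe sets. Prdx1 (0.001) and Prdx4 (0.06) lie at the low end, Gadd45gip1 (1.78) and St3gal6 (1.84) far out, and Prdx2 (3.01) farthest.

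By their brightest probe sets, none of the 20 nearest neighbours of Prdx2 on chromosome 8 had a fold change near its low reading. In RefSeq order 89 measured genes lie between Prdx2 and Mmp15, and 10 between Prdx2 and Gadd45gip1. Gadd45gip1, at -1.51 on its brightest probe set, therefore falls just outside these 20 neighbours. No annotated gene overlaps Prdx2 in that table. Of the 10 nearest measured genes on each side, 10 had a log2 fold change above 0 and 10 below 0, with a median of -0.001, from -0.39 for Syce2 to 0.54 for Junb. By limma 0 of these 20 passed the threshold over all probe sets, against 0.00585% of all genes, and 4 had an unadjusted p under 0.05, against 7.36% of all genes. These were Junb, Syce2 (-0.39), Farsa (0.20) and Tnpo2 (0.46), the last 3 named after their values were seen. The 3 probe sets of Farsa, a tRNA synthetase subunit, ran from -0.29 to 0.22, and those of Tnpo2, a nuclear import receptor, were at 0.46, 0.16 and 0.04. Groups did not overlap in 11 of the 20, against 37.6% of all genes.

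Directly beside Prdx2, Rnaseh2a, a subunit of an enzyme that removes RNA from DNA, had log2 values of 7.26 and 7.50 in the knockout arrays, against 7.38 and 7.38 in the wild-type arrays, a log2 fold change of -0.004 (SE 0.098). On the other side Junb, an immediate early transcription factor, had 5.70 and 5.90 in the knockout arrays, against 5.20 and 5.33 in the wild-type arrays. The knockouts were both higher, at 0.54 (SE 0.097), and Junb did not pass (adjusted p = 0.673 by limma). One gene farther out, Rtbdn had -0.03 (SE 0.099) and Hook2, which links organelles to microtubules, had -0.30 (SE 0.119, adjusted p = 0.749 by limma). Klf1, the erythroid transcription factor, 6 genes away, had -0.06 (SE 0.092).

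Around the other members, log2 fold changes of neighbours spanned narrower ranges. They ran from -0.09 to 0.23 over 20 neighbours of Prdx1 on chromosome 4, from -0.15 to 0.14 over 12 neighbours of Prdx3 near the end of chromosome 19, and from -0.20 to 0.26 over 20 neighbours of Prdx4 on the X chromosome, with 0 past the threshold by limma. At an unadjusted p under 0.05 limma gave 0, 0 and 2 of them, the 2 being Spin2c (-0.20) and Sh3kbp1 (0.26) beside Prdx4, named after their values were seen, against 7.36% of all genes. The genes next to Prdx1 were Akr1a1, an aldehyde reductase (0.01), and Mmachc, which processes vitamin B12 (0.23), followed by Ccdc17 (-0.08) and Ccdc163 (-0.06). Those beside Prdx3 were Sfxn4 (0.02) and Grk5 (0.14), then Nanos1 (less than 0.01 in size) and Zfp950 (0.07). Those beside Prdx4 were Acot9 (0.02) and Ptchd1 (0.02), then Sat1 (-0.01) and Phex (-0.05).

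**Figure D4:**
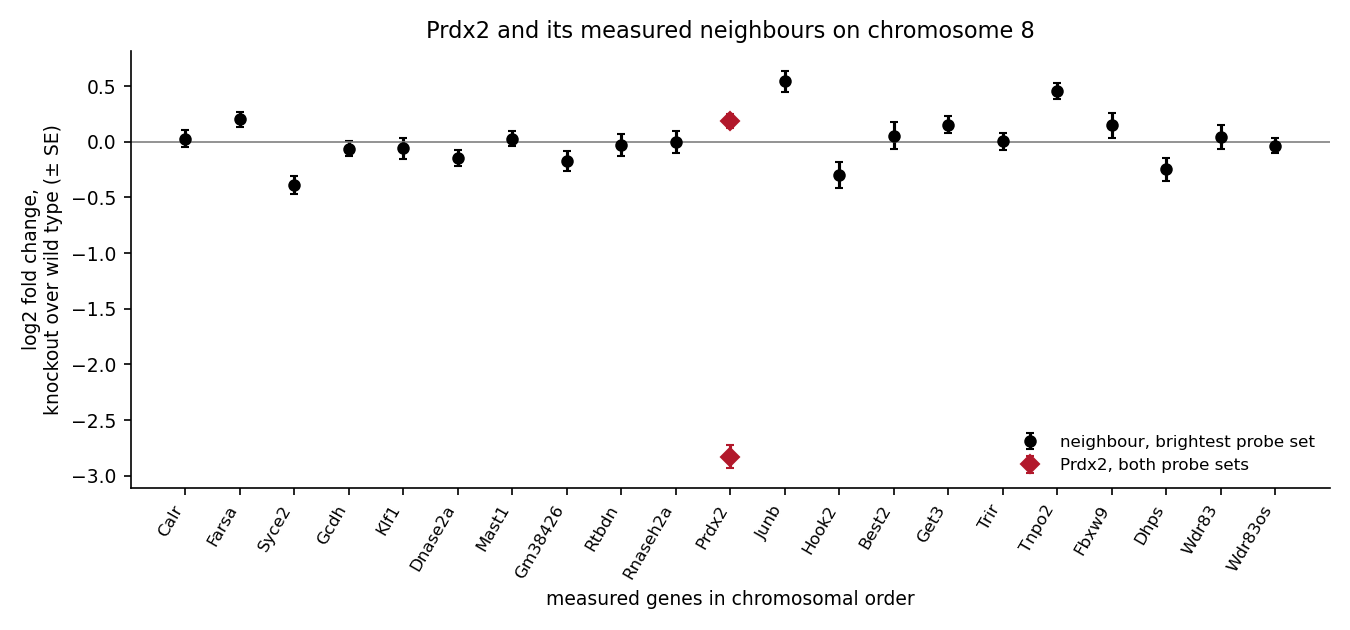
Log2 fold change of knockout over wild type with its SE (y axis) for the 10 nearest measured genes on each side of Prdx2 in chromosomal order (x axis), with both Prdx2 probe sets as red diamonds. The neighbours lie between -0.39 and 0.54, near the upper Prdx2 reading of 0.18 and far from the lower one of -2.83.

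Genes like 1430979_PM_a_at were sought only among named genes, each represented by its brightest probe set. By the root mean square difference of centred log2 values over the 4 arrays, the closest were Itih4 (0.55), Cyp2e1 (0.65) and Gadd45gip1 (0.66). All of these genes were low in both knockouts and high in both wild-type arrays, which closeness to this probe set required. Their differences were smaller than that of this probe set, whose fold change was among the largest on the array. Probe sets without a single gene symbol were left out, although such a set lay closer to 1430979_PM_a_at than Itih4 by the same measure. That unnamed set, with a log2 fold change of -2.22, read 4.69 and 4.59 in the knockout arrays. Its values in the wild-type arrays were 7.02 and 6.70. Itih4, Cyp2e1 and Gadd45gip1 are therefore the closest among named genes only, and further closer probe sets can exist on the array. Itih4, a secreted acute-phase protein, read 5.57 and 5.57 in the knockout arrays, against 7.19 and 7.44 in the wild-type arrays. The other Prdx2 probe set varied by less than 0.5 over the arrays, and no like genes were sought for it.

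Of the thioredoxin system, which includes genes that supply or repair peroxiredoxins, 13 of 13 listed members were measured. Of these 7 had a log2 fold change above 0 and 6 below 0, with a median of 0.003 against -0.002 over all 17097 genes, each represented by its brightest probe set. By limma 0 passed over all probe sets, while 1, sulfiredoxin, had an unadjusted p under 0.05, against 7.36% of all genes. Srxn1 had log2 values of 7.11 and 7.06 in the knockout arrays, against 6.89 and 6.66 in the wild-type arrays. Both knockouts were higher, at 0.31 (SE 0.097, adjusted p = 0.722 by limma), and its 3 dimmer probe sets ran from -0.12 to 0.12.

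By their brightest probe sets none of the thioredoxins and their reductases passed by limma, where the smallest adjusted p was 0.849 for Txn1. Txn1, cytosolic thioredoxin, had log2 values of 11.65 and 11.72 in the knockout arrays, against 11.80 and 11.75 in the wild-type arrays, a log2 fold change of -0.09 (SE 0.071). Both knockouts were lower by a small margin. Its reductase Txnrd1 had 0.06 (SE 0.072). The mitochondrial pair that serves Prdx3 had 0.13 (SE 0.115) for Txn2 and -0.02 (SE 0.079) for Txnrd2, with overlapping genotypes in both. A dimmer probe set of Txnrd2 read 6.25 and 6.25 in the knockout arrays, against 6.08 and 6.02 in the wild-type arrays. Both knockouts were higher there, at 0.20 (SE 0.069), and it did not pass (adjusted p = 0.736 by limma). Further members were Sesn1, a stress-induced sestrin, at -0.19 (SE 0.084) and the thioredoxin relative Nxn at 0.15 (SE 0.066), and neither passed.

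The other routes of peroxide removal were measured in 16 genes of the glutathione system and 11 further antioxidant enzymes. In the glutathione list 9 were above 0 and 7 below 0 (median 0.02), with Gsr, glutathione reductase, at -0.27 (SE 0.070), Gss, glutathione synthetase, at 0.17 (SE 0.066), and the glutaredoxins Glrx at -0.18 (SE 0.098) and Glrx3 at -0.12 (SE 0.068). Gsr read 8.08 and 8.08 in the knockout arrays, against 8.31 and 8.39 in the wild-type arrays. Both knockouts were lower, and its second probe set had -0.31. Among the further antioxidant enzymes 4 were above 0 and 7 below 0 (median -0.02). Sod3, extracellular superoxide dismutase, had 0.41 (SE 0.116), while Sod1, the cytosolic form, had -0.24 (SE 0.071). Oxr1, an oxidation resistance protein, had -0.24 (SE 0.082) and Msrb1, a methionine sulfoxide reductase, -0.23 (SE 0.086). The 3 probe sets of Oxr1 ran from -0.26 to 0.007. In these 2 lists limma passed 0 over all probe sets, and 2 of 16 and 5 of 11 had an unadjusted p under 0.05, against 7.36% of all genes, the fifth of the second list being Msrb2 (0.17), named after its value was seen.

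Of 7 measured genes among 16 listed sources of peroxide, all 7 were below 0 (median -0.10), 0 passed by limma and 2 had an unadjusted p under 0.05, against 7.36% of all genes. Duox1, 1 of the 7, stayed below the 95th percentile of the nonspecific controls. Cybb, the catalytic subunit of the phagocyte NADPH oxidase, read 7.55 and 7.81 in the knockout arrays, against 8.01 and 8.11 in the wild-type arrays, and fell short of the threshold at -0.38 (SE 0.107, limma adjusted p = 0.721). Maob, a monoamine oxidase, had -0.22 (SE 0.080), Noxo1 -0.11 (SE 0.079) and Cyba -0.09 (SE 0.075). All 9 measured macrophage markers were also below 0 (median -0.09), with a summed level of 5891 to 6307 in knockouts and 6496 to 6747 in wild type on the linear scale. The part of macrophage RNA in the Cybb values was not tested.

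Nrf2 and genes it is known to drive lay on both sides of 0. Of 19 measured genes among 22 listed, 10 were above 0 and 9 below 0 (median 0.01), 0 passed by limma and 2 had an unadjusted p under 0.05 (7.36% of all genes did), Gsta4, a glutathione transferase (0.31, SE 0.077), and Srxn1. Hmox1, heme oxygenase, had -0.35 (SE 0.150), with 6.66 and 7.09 in the knockout arrays, against 7.28 and 7.18 in the wild-type arrays. Abcc1, an export pump, had -0.19 (SE 0.083). Nfe2l2, which encodes Nrf2 and was singled out after its values were seen, also had probe sets that differed, with 0.18 (SE 0.111) on 1416543_PM_at and -0.79 (SE 0.422) on 1457117_PM_at. On the second the values overlapped, at 6.03 and 6.66 in the knockout arrays, against 6.52 and 7.74 in the wild-type arrays, with wild type 2 the highest array.

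For the oxidative folding machinery that works beside Prdx4, 8 of 13 genes were above 0 and 5 below 0 (median 0.03), 0 passed by limma and 1 had an unadjusted p under 0.05, against 7.36% of all genes. That gene was Ero1a, the oxidase that makes peroxide during disulfide formation (0.22, SE 0.080). Its 3 probe sets ran from -0.05 to 0.22. Canx, a lectin chaperone, had -0.14 (SE 0.066), the disulfide isomerase Pdia3 0.18 (SE 0.090) and the chaperone Hspa5 0.16 (SE 0.093). Pdia3 read 4.82 and 4.74 in the knockout arrays, against 4.69 and 4.51 in the wild-type arrays. These values lie near the 95th percentile of the nonspecific controls, 4.49 to 4.56 over the arrays, so its fold change says little. Calr, calreticulin, which belongs to this list and is also the tenth measured gene from Prdx2, had 0.03 (SE 0.074).

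Over the 6 lists together 74 genes were measured, 35 above 0 and 39 below 0, with a median of -0.01. By limma 0 passed, the smallest adjusted p being 0.705, and 12 (16.2%) had an unadjusted p under 0.05, against 7.36% of all genes. Groups did not overlap in 37 of the 74, against 37.6% of all genes. By their brightest probe sets none of the 74 differed by as much as 0.5 on the log2 scale, a size reached by 1.06% of all genes. On its dimmer probe set Nfe2l2, 1 of the 74, had -0.79 (SE 0.422). The medians of the thioredoxin, Nrf2 and folding lists changed sign with single arrays left out, which gave -0.05 without knockout 2 and -0.01 without wild type 1 for the thioredoxin list. The Nrf2 list had -0.06 without knockout 2, -0.02 without wild type 1 and -0.04 without wild type 2. The folding list had -0.004 without wild type 2.

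**Figure D5:**
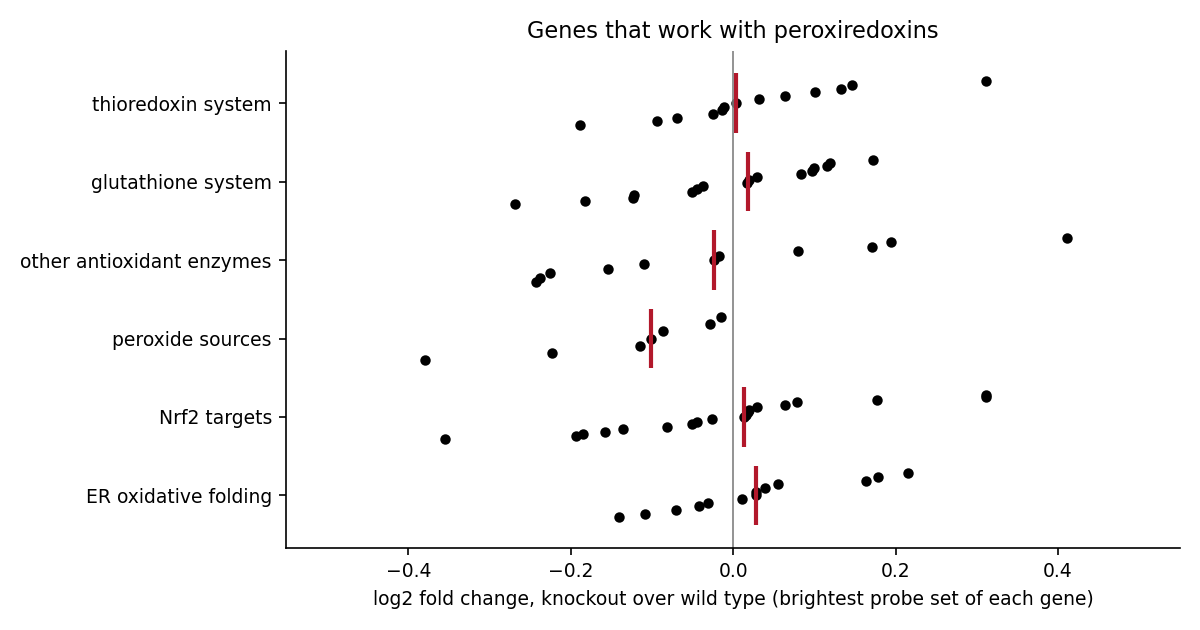
Log2 fold change of knockout over wild type (x axis) for each measured gene (points) of the 6 redox lists (y axis), with list medians as red bars. Points spread on both sides of 0 in 5 lists, all 7 peroxide sources lie below 0, and the medians run from -0.10 to 0.03.

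Markers of other cells that the dissected tissue can hold were set beside these values. Erythroid markers, of which 4 of 8 were measured, had summed levels of 10346 to 10477 in knockouts and 10178 to 10488 in wild type on the linear scale, and Hba-a1, an alpha globin gene, was at 0.01 (SE 0.067) in log2 fold change. The genotypes overlapped in this sum, and 2 of the 4 markers were above 0. Hba-a1, at log2 values of 13.25 to 13.29 over the arrays, made up most of the sum. The sum therefore says little about the other measured erythroid markers. Thermogenic fat markers were above 0 in 7 of 7 measured (median 0.82), with sums of 11019 to 14581 in knockouts and 7504 to 7838 in wild type that did not overlap. All 9 luminal markers were below 0 (median -0.20), with sums of 2988 to 3137 in knockouts and 3505 to 3799 in wild type. Of other lists, 0 of 6 basal markers were above 0 (median -0.23), 3 of 4 of white fat (0.05), 4 of 5 of skeletal muscle (0.28), 6 of 7 of endothelium (0.17) and 3 of 4 of lymphocytes (0.25). By limma 0 markers of any list passed. An unadjusted p under 0.05 was seen in 6 thermogenic, 4 luminal, 3 macrophage, 2 basal and 2 lymphocyte markers, against 7.36% of all genes. It was also seen in 1 endothelial marker and 1 of white fat, Lep (2.19, SE 0.466). Of the erythroid, skeletal muscle, and hair follicle and epidermal markers 0 had such a p. Both Prdx2 probe sets also separated the genotypes, in opposite directions, and the part of these cell types in either reading was not tested.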

How the data were processed

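Per the submitters' processing notes, the authors made the deposited log2 values with RMA in the affy package (version not given in the sources used here), a method that forces arrays to one distribution and compresses dim signals. Labelling used 200 ng of total RNA, per the labels. The table held 45141 probe sets, 104 of them controls, which were left out; 28898 carried 1 gene symbol, 551 several and 15588 none in the annotation used. RefSeq GRCm38.p6 matched 99.3% of these symbols by gene ID, changed 0, and gave the gene order. Probe sequences were not used here.

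Every probe set was fitted with lmFit and eBayes (limma 3.58.1, R 4.3.3), knockout against wild type, two-sided, no covariates, Benjamini-Hochberg threshold 0.05, with 2 residual and 3.43 prior degrees of freedom. For arrays, their number limits precision: the median SE was 0.081, and an exact permutation of 2 against 2 arrays cannot go below p = 0.333. In gene lists the brightest probe set stood for a gene. The step was tested on simulated data. Members and lists were chosen with earlier results of these data known. Named genes were all member probe sets, the direct thioredoxin partners and Srxn1, up to 4 genes of smallest p per list, the nearest neighbours (for Prdx2 also those past 0.5) and the 3 most like patterns. Alternatives covered normalization, dim probe sets, variance models, probe sets per gene, replicate blocks and each array left out.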

Additional observations from a re-analysis of the deposited data

How the results depend on the processing

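The number of probe sets called by limma was the least stable result: 2 as reported, 5 with quantile normalization, median centring, brighter probe sets only, an intensity trend or robust variances, 1 with the brightest probe set per gene, and 0 to 5 with 1 array left out (0 without knockout 1, knockout 2 or wild type 2, where limma gave 2267, 2786 and 2101 at an unadjusted p under 0.05). With the replicate number as a block 0 passed (3131 at an unadjusted p under 0.05 by limma), and with a crossed replicate block, added after the data were seen, 0 passed (2558 at an unadjusted p under 0.05). The deviations of same-numbered arrays correlated at -0.295. With 2 arrays per genotype this is a single contrast, so it cannot show whether the numbers pair the samples, and the main fit used no block. Prdx2 as 1 value per gene was 0.18 by the brightest probe set and -1.32 by the mean of both; the cause is the construction, since the mean includes the low probe set. In the other alternatives run the 9 member fold changes, the Prdx2 spread and the neighbours' median moved by less than the replicate SD. With 1 array left out, or with the replicate block, this was fixed in advance for single probe sets and the Prdx2 spread. At 2 arrays per genotype, leaving 1 out cannot move a fold change by more than that SD, and the block leaves it unchanged. Signs did change, as for Prdx4 on 1416166_PM_a_at, from -0.05 to 0.11 without wild type 1. Calls in the 6 lists stayed at 0 in the alternatives that kept 2 arrays per genotype. This was certain with the replicate number as a block, where 0 probe sets of the whole array passed, and likely where up to 5 did. List medians moved by more than the SD only for Nrf2 targets, without knockout 2 (-0.057) and without wild type 2 (-0.037).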
